A study of Arabidopsis thaliana with 24 samples.

Results

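The genes described here are the protein-coding genes of the Arabidopsis thaliana plastid genome: the rows of the deposited count table whose identifier carries the plastid prefix ATCG and whose listed biotype is protein-coding. There were 88 of them among 32833 genes, beside 37 plastid tRNA rows and 8 plastid rRNA rows. The seedlings were 9 days old, were taken whole, and came from wild-type Col-0 (WT) or the exa1-1 mutant, which is represented by this allele alone. Plants raised on 1/2 MS agar with sucrose were kept for 60 min on 1/2 MS or with 200 mM NaCl (the salt set), or at 23 °C or 39 °C (the heat set). Each of the 8 groups had 3 libraries. Nothing in the labels says that these came from separate cultures, so p-values measure only the spread between libraries, which may be technical.

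The plastid genome is a remnant of a cyanobacterial genome. It encodes core subunits of both photosystems, the cytochrome b6f complex, the ATP synthase, a plastid NADH dehydrogenase-like (NDH) complex and the large subunit of Rubisco, together with ribosomal proteins and the core of a bacterial-type RNA polymerase (rpoA, rpoB, rpoC1, rpoC2). That polymerase depends on sigma factors imported from the cytosol and transcribes mainly photosynthesis genes, whereas phage-type polymerases encoded in the nucleus transcribe housekeeping genes such as the rpoB operon and accD. Many plastid genes lie in operons whose long transcripts are cut, trimmed at the 3′ end and protected by nuclear-encoded RNA-binding proteins. Unlike in the cytosol, a poly(A) tail on a plastid RNA marks it for decay, so an mRNA library samples these transcripts poorly and unevenly. The labels call the libraries strand-specific mRNA libraries made from total RNA, and how mRNA was selected is not given in the sources used here.

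Plastid protein-coding reads were a very small part of each library. Libraries held 17600922 to 21557382 assigned reads, of which 3172 to 8030 fell on these genes, or 0.0158% to 0.0372%. The plastid rRNA rows held only 58 to 156 reads per library. EXA1, the gene mutated in exa1-1, had 1488 to 3111 reads in WT libraries and 143 to 342 in exa1-1 libraries, with no overlap within any condition. Markers of green shoot tissue (9 of 9) and of roots (12 of 12) were both detected in these whole seedlings. Fewer plastid-rich cells and less plastid RNA per cell cannot be told apart in such bulk samples.

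The reads were spread very unevenly over the 88 genes. Of these, 8 had no read in any library: psbF, both copies of rpl23 and of ycf2, both rows named ycf15-A, and ATCG01250. Genes in the inverted repeat, which are present as near-identical copies and whose reads may have been split or dropped in counting, were at or near 0; the 2 rows named rps7-A had 1 and 2 reads in all 24 libraries and those of rpl2 8 and 32. At the other end, 12 genes held 71.0% of all plastid protein-coding reads. psbA, the D1 reaction-centre protein of photosystem II, held 14.7%. atpB, the beta subunit of the ATP synthase, held 12.4% and rbcL, the large subunit of Rubisco, 6.91%. By role, photosystem II genes held 35.5% of the reads, ATP synthase genes 22.0%, the 11 large-subunit ribosomal protein rows 8.10%, photosystem I and its assembly factors 6.01%, RNA polymerase 5.64%, cytochrome b6f 2.38% and the NDH complex 1.77%.

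Per length, in WT seedlings on 1/2 MS, the highest level was that of psbK, a small photosystem II subunit, at 73.7 ± 4.46 FPKM (SD, n = 3; FPKM is the deposited count normalised to gene length and depth). rpl32, a ribosomal protein gene, followed at 67.2 ± 5.20 and psbM, another small photosystem II subunit, at 54.3 ± 11.1. All 3 genes are short, at 7017-7202 (psbK), 113449-113607 (rpl32) and 28707-28811 (psbM) of the plastid chromosome. Their FPKM thus divide the reads by few bases, and their rank is uncertain. Levels of different genes were not tested against each other. psbA stood at 42.6 ± 1.39, atpB at 34.9 ± 1.28, rpl16 at 24.9 ± 1.82, rbcL at 21.3 ± 1.13 and cemA, an envelope membrane protein gene, at 20.8 ± 0.912. The photosystem I core genes psaA and psaB had 5.16 ± 0.289 and 5.30 ± 0.0186 FPKM, a difference within the SD of psaA. Genes for the NDH complex ran from 0.0978 FPKM (ndhH) to 3.28 (ndhK), with ndhF at 0.113 ± 0.0770. rps2, a ribosomal protein gene, had 0.641 ± 0.203.

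**Figure D1:**
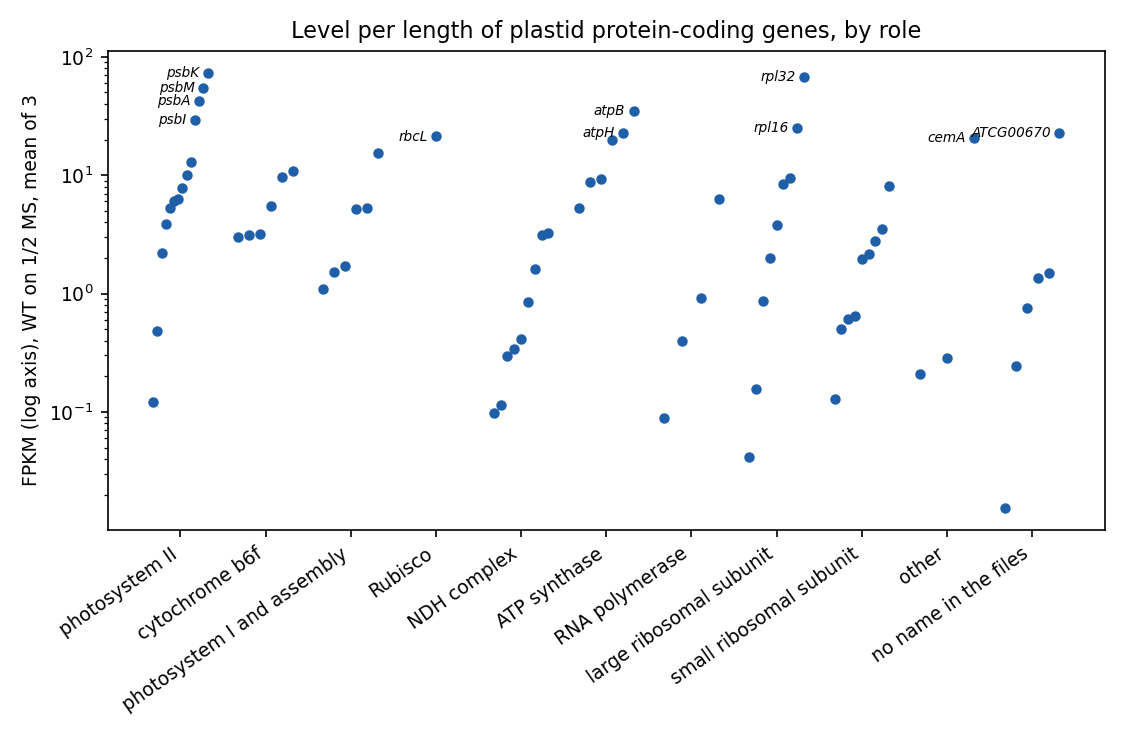
FPKM of plastid protein-coding genes in WT seedlings on 1/2 MS (vertical log axis, mean of 3 libraries), grouped by role along the horizontal axis, with 1 point per gene above 0. Levels span from 0.0155 for ATCG01000 to 73.7 for psbK. Photosystem II and large-subunit ribosomal protein genes include both high and low ones, whereas Rubisco is a single gene and all NDH genes are low.

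Neighbours that are cotranscribed were not counted at like levels. rpoB, rpoC1 and rpoC2 lie in this order on the minus strand, at 23111-26329, 20251-23084 and 15938-20068 of the plastid chromosome (TAIR10.1 annotation). They had 6.29 ± 0.361, 0.394 ± 0.0702 and 0.0895 ± 0.0434 FPKM on 1/2 MS in WT. The first gene of this operon was therefore counted far more often per length than those downstream. cemA, between ycf4 and petA on the plus strand, had a mean of 16.3 FPKM over all libraries, against 0.888 for ycf4, a photosystem I assembly factor, and 1.64 for petA, cytochrome f. psbN, on the strand opposite to the psbB operon, had 0.121 FPKM against 10.1 ± 2.69 for its neighbour psbT. Where genes overlap, as psbD with psbC, atpB with atpE and rps3 with rpl22 do, reads in the overlap cannot be assigned with certainty.

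Because a selection by poly(A) tails, if one was used, could also bind internal runs of A, the longest such run in several genes is shown with 12 bases on each side, 5′ to 3′ on the coding strand, with the run in capitals. The 6 genes were picked after their values were seen, to cover long and short runs in genes of high and low level. Sequences come from the RefSeq TAIR10.1 plastid chromosome (Pltd).
rpoA, Pltd:78083-78120, minus strand: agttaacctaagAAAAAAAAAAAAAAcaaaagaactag
rpoC2, Pltd:17914-17950, minus strand: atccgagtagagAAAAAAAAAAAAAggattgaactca
atpB, Pltd:54089-54122, minus strand: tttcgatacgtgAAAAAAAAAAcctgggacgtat
rpoB, Pltd:25672-25705, minus strand: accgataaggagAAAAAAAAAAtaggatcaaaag
psbA, Pltd:1356-1383, minus strand: taactagcactgAAAAccgtctttacat
psbK, Pltd:7077-7103, plus strand: tttttagtcgccAAAttgccagaggcc
The runs were 14 bases in rpoA, a gene at 0.909 ± 0.218 FPKM, and 13 in rpoC2, but 4 in psbA and 3 in psbK. They were 10 in atpB, a gene at 34.9 FPKM, and 10 in rpoB, the highest of its operon, so a long run occurred in genes of high and of low level. Over the 65 genes with a single place in the reference and an FPKM value, the longest run and the mean FPKM had Spearman's rho of -0.34, a description over genes that share the same libraries. GC content had rho of 0.20 and length -0.22.

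The promoter of psbA is also shown, because this gene gave the most reads and was among those that rose most in heat. Its element lay 115 bases before the start codon and holds the 2 hexamers of a bacterial-type promoter, in capitals, 18 bases apart.
psbA promoter element, Pltd:1530-1559, minus strand: TTGACAtggctatataagtcatgtTATACT
In the 300 bases before the start codon of each of 66 genes with a single place in the reference, the hexamer TTGACA on the coding strand was found for 6 genes (9.09%: psbA, atpF, petD, rpl14, ndhF and rpl32), and on either strand for 8 (12.1%). TTGACA followed after 15 to 20 bases by TANNNT was found for psbA and atpF, 3.03% of the windows. TATAAT alone occurred on the coding strand in 24.2%. These are matches of letters, not mapped promoters.

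Of the 88 genes, 51 had enough reads to be tested in the salt set and 51 in the heat set, 49 of them the same genes, and 35 were tested in neither. Changes below are log2 fold changes from edgeR's quasi-likelihood test with the trimmed mean of M values (TMM) scaling. The SE after ± is the absolute log2 change divided by the square root of the test's F statistic, an approximate value. Adjusted p-values are Benjamini-Hochberg over all genes tested. A gene rose or fell where its adjusted p was below 0.05.

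The mutant had fewer plastid transcripts than WT on 1/2 MS. Of 51 genes tested, 24 fell and 0 rose, while 16.0% of all 21759 genes tested fell and 13.3% rose. The median log2 change was -0.41 for the plastid genes and 0.00 for all genes. The summed share of reads was 0.0366% ± 0.000617 in WT and 0.0278% ± 0.00119 in exa1-1 (SD, n = 3 each), a difference of -24.2% with no overlap between libraries. The exact two-sided permutation test gave p = 0.10, the smallest that 3 against 3 allows. In single libraries this share was known closely, for example 0.0360% with an exact 95% binomial interval of 0.0352% to 0.0368% in WT replicate 1, which covers counting error only.

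**Figure D2:**
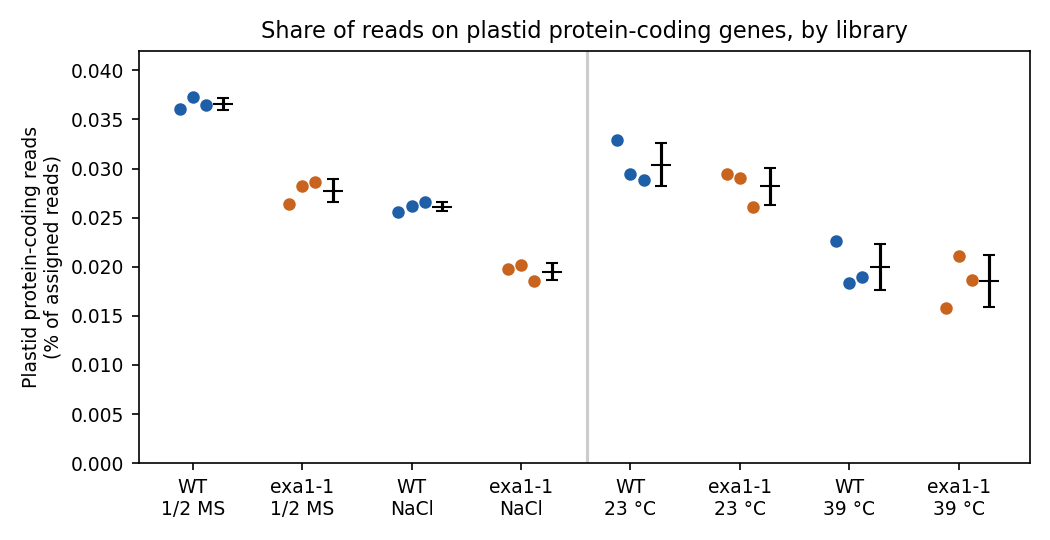
Share of assigned reads on plastid protein-coding genes (percent, vertical axis) in each of the 24 libraries, with the mean ± SD of each group of 3 beside the points. WT libraries on 1/2 MS (0.0360% to 0.0372%) lie above all exa1-1 libraries on 1/2 MS, both NaCl groups lie below their 1/2 MS group, and both 39 °C groups lie below their 23 °C group.

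The lower counts in exa1-1 on 1/2 MS covered nearly every role. Among photosystem II genes 6 of 12 tested fell. psbA had 910, 999 and 818 reads in WT and 611, 672 and 761 in exa1-1, and fell by 0.37 ± 0.06 (adjusted p = 5.58e-08). psbB, which encodes the core antenna protein CP47, had 403, 436 and 344 against 278, 259 and 265, and fell by 0.52 ± 0.09 (adjusted p = 3.87e-07). In both genes every mutant library was below every WT library.

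The photosystem I core genes fell as well. psaA had 233, 245 and 221 reads in WT and 114, 162 and 127 in exa1-1, a fall of 0.76 ± 0.13 (adjusted p = 1.68e-07), and psaB fell by 0.58 ± 0.12. rbcL had 669, 668 and 515 against 401, 408 and 489 reads and fell by 0.47 ± 0.07 (adjusted p = 3.85e-08). No library of the mutant reached the WT range of these genes.

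All 4 large-subunit ribosomal protein genes tested fell, with log2 changes from -0.75 to -0.69. rpl32 fell by 0.75 ± 0.13 and rpl16 by 0.72 ± 0.13. rps3, a small-subunit protein gene, had 113, 108 and 98 reads in WT and 36, 64 and 54 in exa1-1, so the groups were well apart, and it fell by 1.01 ± 0.19 (adjusted p = 6.99e-06). ATP synthase genes were less uniform: atpB (1131, 1084 and 937 against 730, 894 and 872 reads) fell by 0.30 ± 0.06 and atpI, a membrane subunit, by 0.78 ± 0.16, while atpA, the alpha subunit, had a value of -0.15 ± 0.11 (adjusted p = 0.334). None of the 4 NDH genes tested passed the threshold, with values from -0.16 to 0.46. Of the 24 calls, 15 held whichever library was left out.

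Nuclear genes and tissue markers moved in the same comparison. Of 27 nuclear genes for subunits of the same complexes, 25 fell and 1 rose, with a median of -0.35. All 9 shoot markers fell, and their summed level ran from 7081 to 7277 CPM in WT and from 5366 to 5409 in exa1-1. Of 12 root markers 4 rose and 1 fell, with a summed level of 2327 to 2345 CPM in WT and 2110 to 2159 in exa1-1. The part of tissue composition in the plastid result was not tested. Of 22 nuclear genes for plastid transcription 3 rose and 1 fell. The faller was SIG4, a sigma factor of the plastid polymerase, at -0.84 ± 0.12 (adjusted p = 5.83e-10). SCA3, the phage-type plastid RNA polymerase, rose by 0.17 ± 0.04.

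With NaCl the mutant was again lower. Of 51 genes 17 fell and 0 rose, against 17.2% of all genes that fell and 18.6% that rose, and the median was -0.46. The share of reads was 0.0261% ± 0.000485 in WT and 0.0195% ± 0.000850 in exa1-1, a difference of -25.3% without overlap (exact permutation p = 0.10). rbcL had 418, 412 and 489 reads in WT and 336, 364 and 242 in exa1-1, and fell by 0.57 ± 0.08 (adjusted p = 6.34e-10). psbB had 317, 315 and 349 against 185, 209 and 188 reads, and fell by 0.84 ± 0.10 (adjusted p = 3.64e-14). rpoB had 276, 285 and 306 against 225, 194 and 163 reads, and fell by 0.66 ± 0.10 (adjusted p = 2.45e-09). In these genes the mutant libraries lay below all WT libraries. cemA fell by 0.67 ± 0.10 and rpl32 by 0.77 ± 0.13. psbA fell by 0.18 ± 0.06 (adjusted p = 0.0170) and lost the call without WT replicate 3 (-0.14, adjusted p = 0.137) or exa1-1 replicate 3 (-0.13, adjusted p = 0.139). Of the 17 calls, 10 held whichever library was left out.

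Beside this, all 27 nuclear subunit genes and all 9 shoot markers fell in exa1-1 with NaCl, with medians of -0.63 and -0.88. The summed shoot markers ran from 11829 to 12034 CPM in WT and from 6925 to 7096 in exa1-1, and those of roots (5 of 12 rose, 0 fell) from 963 to 970 and from 1076 to 1092. Their part in the plastid result was not tested. Of 15 nuclear genes for plastid RNA processing and decay 12 fell. CSP41A, a chloroplast RNA-binding protein and endonuclease, fell by 0.69 ± 0.03 and MRL1, which is needed for rbcL transcript accumulation, by 0.66 ± 0.06. Of the 22 nuclear transcription genes 12 fell and 2 rose. The faller with the lowest adjusted p was SIGF, a sigma factor, at -0.52 ± 0.05 (adjusted p = 1.57e-20).

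Salt also lowered plastid transcripts within each genotype. In WT, 24 of 51 genes fell and 0 rose, in a comparison in which 37.6% of all genes fell and 36.9% rose. The median was -0.37 against -0.01 for all genes. In exa1-1, 13 of 51 fell and 0 rose, against 37.9% and 37.1% of all genes, with a median of -0.33. The share called, 47.1% in WT and 25.5% in exa1-1, was thus below the background of rises and falls together in both genotypes. Set against falls alone, it was above the background in WT and below it in exa1-1. The absence of rises differed from the near-even split of all genes. With NaCl the share of reads differed by -28.6% in WT and by -29.8% in exa1-1, with no overlap in either (exact permutation p = 0.10 each). The salt comparisons share their 1/2 MS libraries with the genotype comparison above. Scaled to assigned reads in place of TMM, the median of all genes moved to -0.16 in both genotypes and 26 and 23 plastid genes fell. Over all genes, rises then went from 49.6% to 38.1% of the calls in WT and from 49.5% to 38.0% in exa1-1.

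Among ATP synthase genes, atpB had 1131, 1084 and 937 reads on 1/2 MS and 531, 512 and 574 with NaCl in WT, and fell by 0.69 ± 0.06 (adjusted p = 8.21e-23). In exa1-1 it had 730, 894 and 872 reads against 433, 465 and 423, and fell by 0.77 ± 0.06 (adjusted p = 1.52e-24). atpA fell by 0.61 ± 0.12 and 0.81 ± 0.13 in WT and exa1-1. The NaCl libraries lay below all 1/2 MS libraries for both genes. In WT 5 of 6 ATP synthase genes fell, and in exa1-1 2 of 6. psbK had 279, 283 and 262 against 127, 157 and 169 reads in WT and fell by 0.60 ± 0.11, and in exa1-1 by 0.72 ± 0.13. rbcL fell less, by 0.22 ± 0.07 in WT and 0.32 ± 0.08 in exa1-1.

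psbA, the gene with most reads, had small values under salt. In WT it fell by 0.15 ± 0.06 (adjusted p = 0.0204), a call lost without 1/2 MS replicate 2 (-0.13, adjusted p = 0.0766) or 3 (-0.13, adjusted p = 0.0764) or NaCl replicate 1 (-0.13, adjusted p = 0.0759) or 2 (-0.09, adjusted p = 0.230). In exa1-1 its value was 0.05 ± 0.06 (adjusted p = 0.498). rps3 fell by 0.86 ± 0.20 in WT. Single genes with few reads had the extreme values: ATCG00040 (37, 49 and 42 against 15, 9 and 18 reads) fell by 1.34 ± 0.33 in WT, and ndhC (13, 20 and 15 against 6, 3 and 3) fell by 1.82 ± 0.54 in exa1-1.

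Shoot markers rose under salt. Of 9 shoot markers 8 rose and 0 fell in each genotype, and of 27 nuclear subunit genes 23 rose and 3 fell in WT and 17 rose and 7 fell in exa1-1. Root markers fell (10 of 12 in each genotype), and their summed level went from 2327 to 2345 CPM down to 963 to 970 in WT. Their part in the plastid result was not tested. Of 22 nuclear genes for plastid transcription 6 rose and 9 fell in WT (median -0.06), and 5 rose and 16 fell in exa1-1 (median -0.32). PTAC12 and FLN2, both associated with the plastid polymerase, were among the fallers. They fell in WT by 0.96 ± 0.06 and 1.06 ± 0.07 and in exa1-1 by 1.05 each (SE 0.06 and 0.07). Of 15 nuclear genes for plastid RNA processing and decay 6 rose and 4 fell in WT, and 2 rose and 10 fell in exa1-1.

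**Figure D3:**
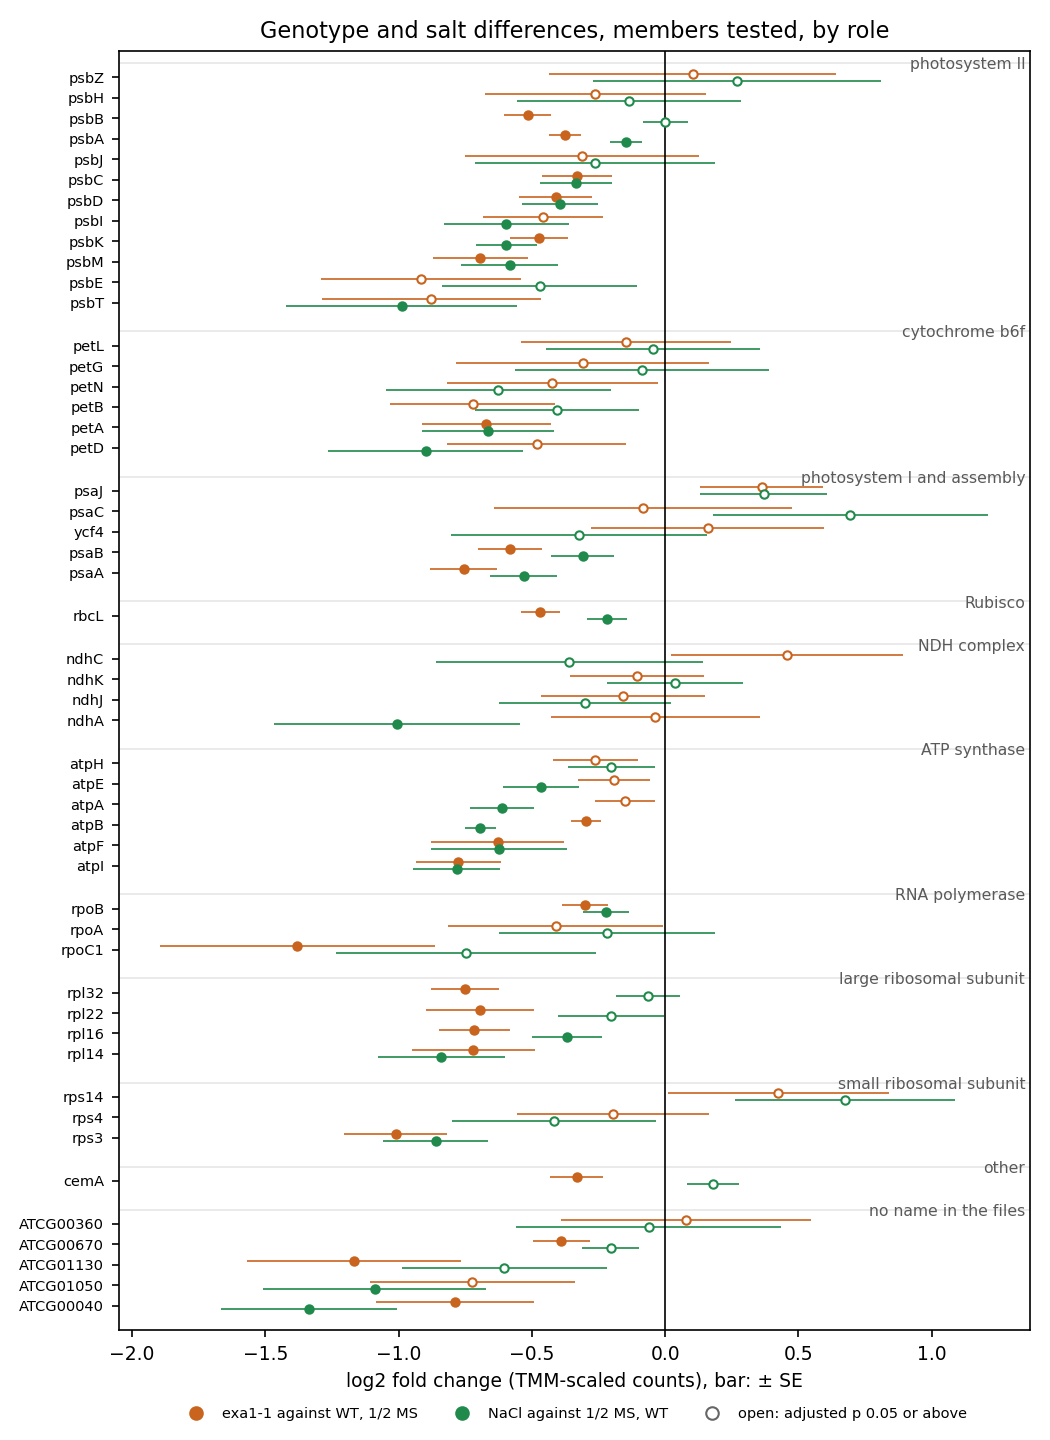
log2 fold change ± SE of the plastid genes tested in the salt set (1 of the 51 not drawn), for exa1-1 against WT on 1/2 MS (orange) and for NaCl against 1/2 MS in WT (green), grouped by role, with filled points below an adjusted p of 0.05. All filled points lie left of 0, and both comparisons use the same WT libraries on 1/2 MS.

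In the salt set the difference in response between genotypes passed the test for 1 plastid gene. rpoB fell more with salt in exa1-1 (291, 343 and 329 reads on 1/2 MS against 225, 194 and 163) than in WT (423, 412 and 383 against 276, 285 and 306), with an interaction of -0.36 ± 0.13 (adjusted p = 0.0324). Over all genes, 11.6% had a higher and 9.61% a lower interaction, so that 1 of 51 is below the background. This call was lost without WT replicate 2 on 1/2 MS (-0.32, adjusted p = 0.0928) or with NaCl (-0.35, adjusted p = 0.0611), without exa1-1 replicate 2 on 1/2 MS (-0.35, adjusted p = 0.0678), and without exa1-1 replicate 2 (-0.32, adjusted p = 0.0919) or 3 (-0.32, adjusted p = 0.0843) with NaCl. By contrast 26 of 27 nuclear subunit genes and 12 of 22 nuclear transcription genes had a lower interaction, with medians of -0.31 and -0.21 against -0.02 for the plastid genes.

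In the heat set no plastid gene passed the test between the mutant and WT at 23 °C. Of 51 genes 0 rose and 0 fell in edgeR's test, against 3.28% and 4.26% of all 21196 genes, and 8 had an unadjusted p below 0.05. DESeq2 called 2 (psbK and atpB) and limma on FPKM 2 (rpl14 and rps3), all lower, and 2 were called without WT replicate 3 (psbK and rpoC1). The median was -0.15. The share of reads was 0.0304% ± 0.00221 in WT and 0.0282% ± 0.00188 in exa1-1, groups that overlapped (exact permutation p = 0.50). psbK had 316, 219 and 225 reads against 166, 163 and 185, with no overlap and a value of -0.46 ± 0.14 (adjusted p = 0.0502). atpB had 986, 927 and 1003 against 726, 800 and 703 reads, again with no overlap, at -0.28 ± 0.09 (adjusted p = 0.0696). Shoot markers fell in 6 of 9 cases and nuclear subunit genes in 4 of 27. In a simulated comparison of this kind over 20774 genes, 52.2% of genes changed by 0.5 (log2) were recovered, against 85.1% for exa1-1 against WT on 1/2 MS (21505 genes). The changed genes were drawn from all genes above a minimum mean count, not from the plastid genes. Many of the plastid genes tested, such as accD, rps2, rps14, petG and psbZ, lay below that minimum, so these shares do not hold for them.

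At 39 °C 1 plastid gene was higher in exa1-1 and 3 were lower, against 7.45% and 8.03% of all genes, and the median was -0.10. The share of reads was 0.0200% ± 0.00230 in WT and 0.0185% ± 0.00264 in exa1-1, which overlapped (exact permutation p = 0.50). atpA had 54, 53 and 70 reads in WT and 71, 153 and 103 in exa1-1, and rose by 0.84 ± 0.21 (adjusted p = 0.0107). It lost the call without exa1-1 replicate 2 (0.58, adjusted p = 0.0886), leaving 1 gene called. rpl16 had 28, 30 and 35 against 20, 15 and 14 reads and fell by 0.96 ± 0.26 (adjusted p = 0.0156), which was lost without exa1-1 replicate 2 (-0.85, adjusted p = 0.0780) or 3 (-0.90, adjusted p = 0.0563).

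The other 2 rested on few reads. rps3 had 10, 14 and 16 reads against 3, 8 and 5 and fell by 1.35 ± 0.43 (adjusted p = 0.0396). It lost the call without WT replicate 2 (-1.28, adjusted p = 0.0983) or 3 (-1.18, adjusted p = 0.0943) or exa1-1 replicate 1 (-1.05, adjusted p = 0.124) or 3 (-1.34, adjusted p = 0.0913). petD, subunit IV of the cytochrome b6f complex, had 30, 16 and 15 against 10, 7 and 3 reads and fell by 1.64 ± 0.46 (adjusted p = 0.0211). It lost the call without WT replicate 1 (-1.27, adjusted p = 0.126) or exa1-1 replicate 2 (-1.62, adjusted p = 0.0731) or 3 (-1.32, adjusted p = 0.0965). In the count without exa1-1 replicate 3, too, 1 gene was called. In contrast, 21 of 27 nuclear subunit genes and 8 of 9 shoot markers fell in exa1-1 at 39 °C.

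Heat gave the widest range of values among plastid genes, and these differed by role. In WT 13 of 51 genes rose and 16 fell, against 36.6% and 38.6% of all genes. In exa1-1 13 rose and 15 fell, against 36.3% and 39.7%. In all, 56.9% of the 51 genes were called in WT and 54.9% in exa1-1, so rises and falls were both below the background. The log2 changes ran from -4.23 to 2.37 in WT and from -4.33 to 2.84 in exa1-1. Scaling mattered here. The TMM factors were 1.34 to 1.39 at 23 °C and 0.721 to 0.748 at 39 °C, and scaling to assigned reads instead moved the median of all genes from -0.06 to -0.97 in WT and from -0.09 to -0.97 in exa1-1. Under that scaling 3 plastid genes rose and 31 fell in WT, and 7 rose and 30 fell in exa1-1, so every heat value below is relative to the bulk of genes. Over all genes, the share of calls that were rises went from 48.7% to 14.4% in WT and from 47.7% to 16.0% in exa1-1.

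The summed level therefore depended on the scale. As a share of assigned reads, plastid genes differed at 39 °C by -34.3% in WT and by a like -34.4% in exa1-1, with no overlap (exact permutation p = 0.10 each). In TMM-scaled units their sum was 223 ± 20.0 CPM at 23 °C and 274 ± 33.9 at 39 °C in WT, and 207 ± 13.2 and 251 ± 31.9 in exa1-1. The makeup of the plastid reads does not depend on scaling. psbA went from 7.32% to 9.71% of them in the 6 libraries at 23 °C to 23.0% to 35.3% in the 6 at 39 °C, and psbK from 2.81% to 4.63% up to 14.5% to 19.9%. atpB went from 13.4% to 16.5% down to 4.78% to 7.25%, and rpoB from 6.80% to 7.89% down to 0.197% to 0.459%. rbcL went from 4.03% to 4.52% up to 5.02% to 6.80% in WT, without overlap, and overlapped in exa1-1, at 4.43% to 5.61% and 5.10% to 6.06%.

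Photosystem II genes were the group that rose. In WT 8 of 12 rose and 0 fell, with a median of 1.01, and in exa1-1 9 rose and 0 fell, with a median of 1.25. Per assigned read, 3 of the 12 rose and 2 fell (psbB and psbM) in WT, and 5 rose and the same 2 fell in exa1-1. psbK had 316, 219 and 225 reads at 23 °C and 665, 603 and 694 at 39 °C in WT, and 166, 163 and 185 against 612, 804 and 627 in exa1-1. It rose by 2.37 ± 0.13 (adjusted p = 1.33e-12) and 2.84 ± 0.14 (adjusted p = 1.12e-13). psbI, the small photosystem II subunit encoded next to psbK, rose by 1.95 ± 0.18 and 2.07 ± 0.18. In both genes all heated libraries were above all libraries at 23 °C.

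psbA, whose promoter element is shown above, had 600, 420 and 512 reads at 23 °C and 1615, 852 and 803 at 39 °C in WT, and 452, 501 and 482 against 826, 1082 and 965 in exa1-1. It rose by 2.08 ± 0.21 (adjusted p = 7.80e-07) in WT and 1.86 ± 0.21 (adjusted p = 2.46e-06) in exa1-1. The groups did not overlap, and WT replicate 1 at 39 °C stood well above the other two. Scaled to assigned reads, the rises of psbA (1.17 and 0.98), psbK (1.46 and 1.96) and psbI (1.04 and 1.19) still passed the test in WT and exa1-1.

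psbD and psbC, the overlapping genes for the D2 reaction-centre protein and the CP43 antenna, rose together by 1.00 ± 0.20 and 1.15 ± 0.19 in WT and by 1.08 ± 0.20 and 1.40 ± 0.19 in exa1-1. psbD had 143, 112 and 74 reads at 23 °C and 123, 102 and 105 at 39 °C in WT, overlapping counts, so its rise is one against the bulk of genes. psbC had 82, 88 and 67 reads against 91, 155 and 100 in exa1-1, with every heated library above every other. Scaled to assigned reads, psbD had 0.09 and 0.20, neither past the threshold, and psbC 0.24 in WT and 0.51 (a rise) in exa1-1. psbB rose in WT by 0.44 ± 0.13 (adjusted p = 0.00420), was 0.29 (adjusted p = 0.0530) without WT replicate 1 at 39 °C, and fell by 0.47 under scaling to assigned reads.

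The other photosynthesis genes were mixed. petB, cytochrome b6, rose by 1.52 ± 0.32 in WT and 1.88 ± 0.35 in exa1-1, or 0.62 (adjusted p = 0.0812) and 1.00 (a rise) per assigned read. rbcL had 309, 240 and 244 reads at 23 °C and 290, 234 and 175 at 39 °C in WT, overlapping counts that correspond to a rise of 0.81 ± 0.17 under TMM (adjusted p = 0.000287) and to -0.09 (adjusted p = 0.609) per assigned read. In exa1-1 it rose by 0.40 ± 0.17 (adjusted p = 0.0413), but not without exa1-1 replicate 3 at 23 °C (0.26, adjusted p = 0.199) or replicate 2 at 39 °C (0.26, adjusted p = 0.220), and it fell by 0.48 per assigned read. psaA had -0.29 in WT and 0.35 in exa1-1, neither past the threshold. psaB fell by 0.78 in exa1-1 (adjusted p = 0.0111), a call lost without exa1-1 replicate 2 at 23 °C (-0.63, adjusted p = 0.0598) or replicate 1 at 39 °C (-0.48, adjusted p = 0.0914). Of the 3 NDH genes tested none passed in WT and ndhK rose by 0.81 in exa1-1. That call was lost without exa1-1 replicate 2 (0.74, adjusted p = 0.114) or 3 (0.57, adjusted p = 0.182) at 23 °C or replicate 2 (0.83, adjusted p = 0.0794) or 3 (0.47, adjusted p = 0.300) at 39 °C, and the value was -0.07 per assigned read.

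Among the polymerase genes rpoB fell in both genotypes. rpoB, the beta subunit of the plastid polymerase, had 539, 448 and 412 reads at 23 °C and 9, 12 and 16 at 39 °C in WT. In exa1-1 it had 375, 428 and 373 against 12, 10 and 10. It fell by 4.23 ± 0.20 (adjusted p = 1.36e-13) in WT and fell by 4.33 ± 0.21 (adjusted p = 1.47e-13) in exa1-1, or 18.8-fold and 20.1-fold, the lowest value among the plastid genes tested in each genotype. rpoC1 had 16, 31 and 11 against 2, 0 and 1 reads in WT, a ratio of 0.104 after division by the TMM-scaled library sizes, with an exact 95% interval of 0.0208 to 0.318 that covers counting error only. In exa1-1, with 15 reads in all at 23 °C and 1 at 39 °C, the ratio scaled likewise was 0.121 with an interval of 0.00287 to 0.785, and rpoC1 did not pass edgeR's test. rpoA, the alpha subunit, fell by 1.14 in WT but lost the call without any of 5 libraries (replicate 1, 2 or 3 at 23 °C, or replicate 2 or 3 at 39 °C, with values from -1.22 to -0.96 and adjusted p from 0.0559 to 0.147), and did not pass in exa1-1. rpoC2 was too low to be tested.

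Several ribosomal protein genes fell as well. Of 4 large-subunit genes tested 3 fell in WT and all 4 in exa1-1, with medians of -1.77 and -2.05. Of 5 small-subunit genes tested 2 fell in each genotype, and the other 3 did not pass. rpl16 had 229, 214 and 205 reads at 23 °C and 28, 30 and 35 at 39 °C in WT, and 193, 175 and 148 against 20, 15 and 14 in exa1-1. The groups were far apart, and it fell by 1.80 ± 0.19 (adjusted p = 3.80e-08) and 2.54 ± 0.22 (adjusted p = 1.24e-09). Its neighbours in the same cluster fell too, rpl14 by 1.75 ± 0.32 and 1.60 ± 0.36, rpl22 by 2.61 ± 0.36 and 2.50 ± 0.38, and rps3 by 1.93 ± 0.29 and 2.63 ± 0.36. rpl32, elsewhere on the chromosome, had -0.24 in WT and fell by 0.63 ± 0.21 in exa1-1.

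ATP synthase genes fell more moderately. In WT 5 of 6 fell and in exa1-1 4 of 6. atpB had 986, 927 and 1003 reads at 23 °C and 219, 226 and 253 at 39 °C in WT, and 726, 800 and 703 against 187, 231 and 171 in exa1-1. It fell by 1.06 ± 0.10 in each genotype (adjusted p = 7.81e-09 and 9.57e-09). atpE, the epsilon subunit, overlaps atpB by a few bases and fell by 1.96 ± 0.22 and 1.82 ± 0.21.

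Among the remaining genes, cemA had 395, 324 and 333 reads at 23 °C and 47, 37 and 24 at 39 °C in WT and fell by 2.28 ± 0.21 there and by 2.50 ± 0.21 in exa1-1. ATCG00670, annotated in the reference as the plastid-encoded subunit of the Clp protease, fell by 0.74 ± 0.15 and 1.21 ± 0.15. accD, a subunit of the acetyl-CoA carboxylase of fatty acid synthesis, was counted at only 2 to 9 reads at 23 °C and 5 to 22 at 39 °C. It rose by 2.67 ± 0.60 (adjusted p = 0.000492) in exa1-1. In WT it rose by 1.89 ± 0.55 (adjusted p = 0.00421), a call lost without WT replicate 1 at 39 °C (1.26, adjusted p = 0.0826) and per assigned read (0.99, adjusted p = 0.103). ATCG00360 fell in exa1-1, where it had 22, 14 and 9 reads at 23 °C and 1, 2 and 0 at 39 °C, a ratio of 0.121 after division by the TMM-scaled library sizes (exact 95% interval 0.0240 to 0.376, counting error only). Of the heat calls, 20 of 29 in WT and 22 of 28 in exa1-1 held whichever library was left out.

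**Figure D4:**
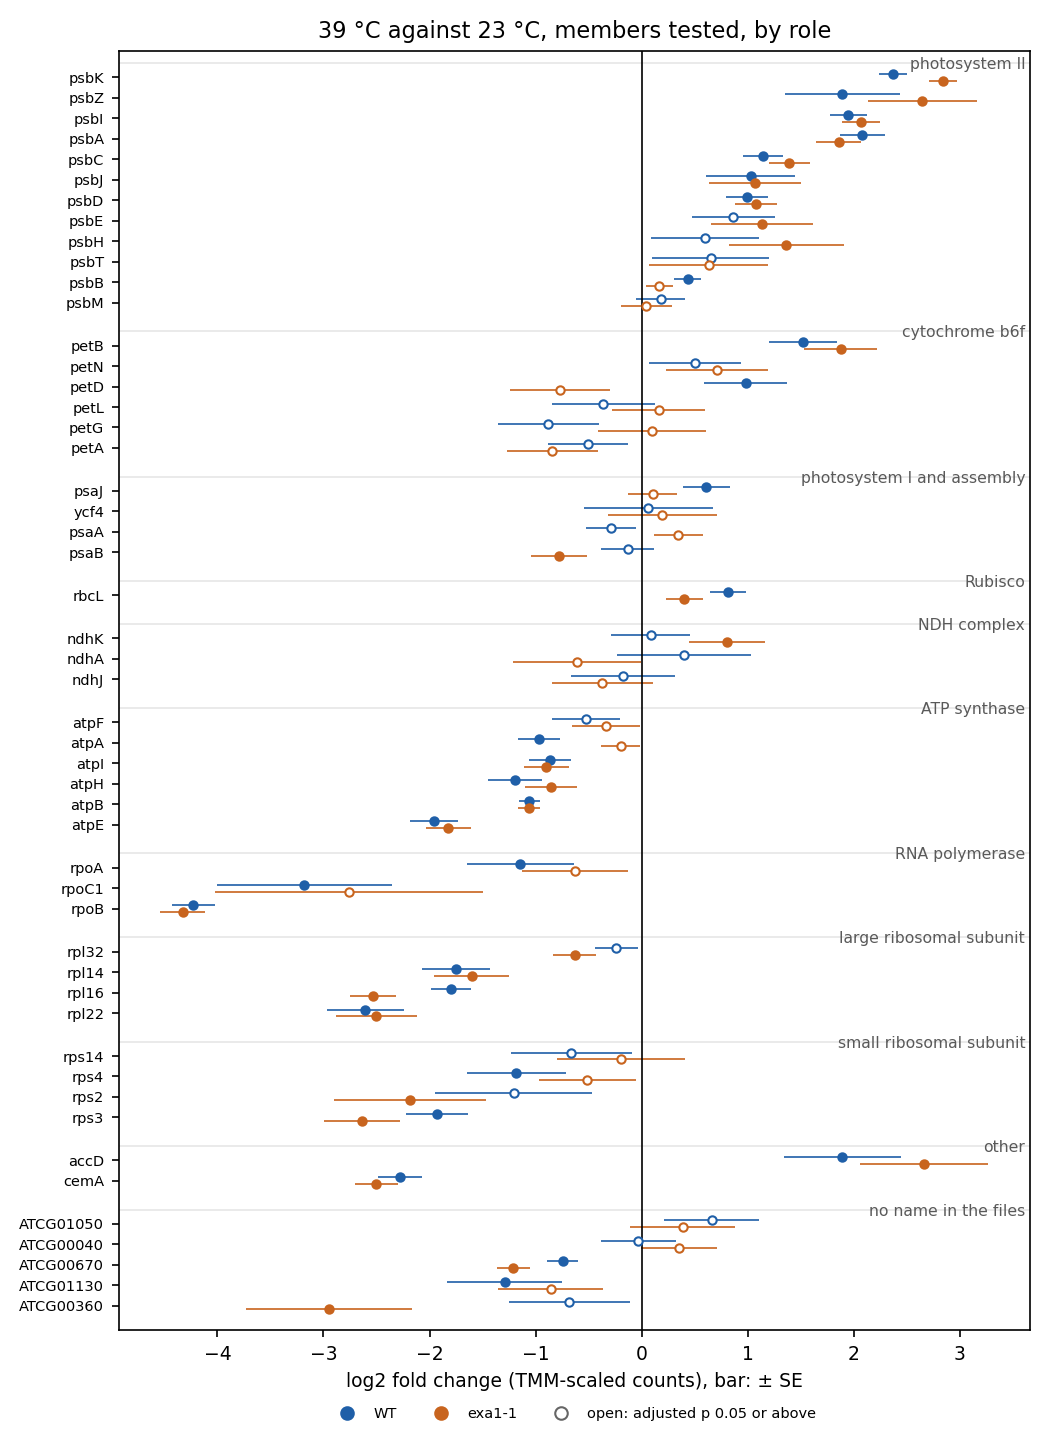
log2 fold change ± SE at 39 °C against 23 °C of the plastid genes tested in the heat set (1 of the 51 not drawn), in WT (blue) and exa1-1 (orange), grouped by role, with filled points below an adjusted p of 0.05. Photosystem II genes lie right of 0, and ATP synthase, RNA polymerase and large-subunit ribosomal protein genes left of it, with rpoB lowest in both genotypes. Per assigned read, values lie about 0.91 (WT) and 0.88 (exa1-1) further left.

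**Figure D5:**
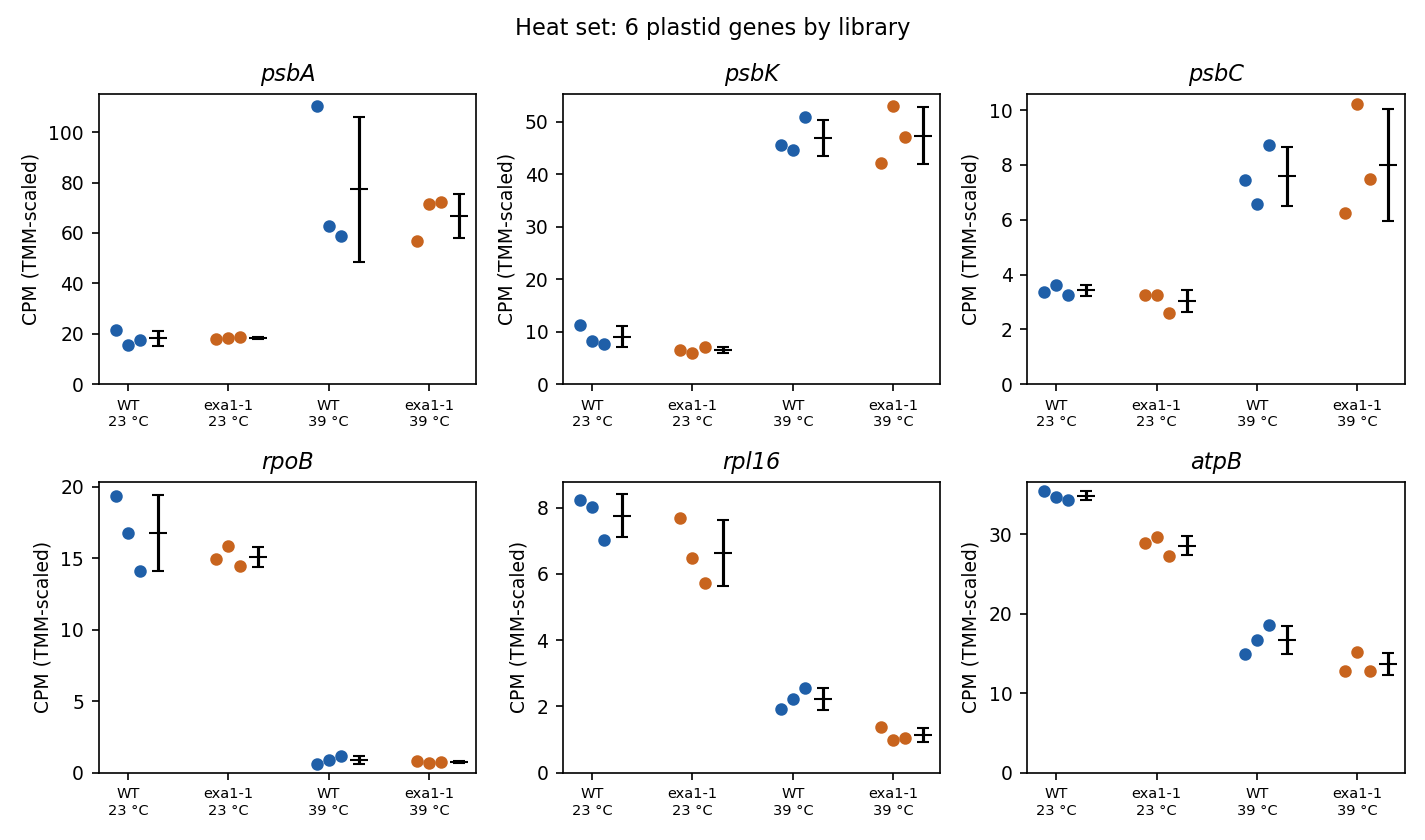
TMM-scaled CPM of 6 plastid genes in the 12 libraries of the heat set (vertical linear axes from 0, 1 point per library, mean ± SD beside them). psbA, psbK and psbC are higher at 39 °C in every library, and rpoB, rpl16 and atpB lower in every library.

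No plastid gene passed edgeR's test for a different heat response between genotypes. Of 51 genes 0 had a higher and 0 a lower interaction, against 0.849% and 0.788% of all genes, with 7 plastid genes at an unadjusted p below 0.05 and 0 called by DESeq2 or by limma on FPKM. Without WT replicate 3 at 39 °C (0.94, adjusted p = 0.0479) or exa1-1 replicate 1 at 39 °C (1.03, adjusted p = 0.0214), atpA was called. The median interaction was 0.12. rpoB had -0.10 and psbA -0.22. Over all genes, higher values went from 51.9% to 63.1% of the calls with relative log expression (RLE) size factors.

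Other organelle RNA and nuclear genes also moved at 39 °C. Plastid tRNA rows summed to 4.07 to 5.17 CPM at 23 °C and 38.8 to 44.6 at 39 °C in WT, and 3.02 to 4.58 and 33.4 to 39.8 in exa1-1. Plastid rRNA rows had 3.81 to 5.58 and 5.20 to 6.13 CPM in WT. Mitochondrial protein-coding rows went from 8.04 to 10.5 up to 99.3 to 150 CPM in WT and from 8.69 to 11.3 up to 106 to 176 in exa1-1. The part of these shifts in the plastid result was not tested.

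Among nuclear genes for plastid transcription 16 of 22 rose and 3 fell in each genotype. SIGE, a stress- and light-responsive sigma factor of the plastid polymerase, rose by 4.20 ± 0.18 in WT and 3.73 ± 0.17 in exa1-1, and SIGA, another sigma factor, fell by 0.51 ± 0.11 and 0.62 ± 0.11. SCA3 rose by 0.70 ± 0.10 and 0.85 ± 0.10. Per assigned read, log2 values would lie lower by 0.908 in WT and 0.885 in exa1-1, so that the rise of SCA3 turns direction there. Of 15 nuclear genes for plastid RNA processing and decay 11 rose and 2 fell in WT, and 10 rose and 2 fell in exa1-1. CSP41A rose by 1.83 ± 0.08 and 1.94 ± 0.08 and its partner CRB by 1.75 ± 0.09 and 1.77 ± 0.09, whereas PGR3, which is needed for petL operon transcripts, fell by 1.85 ± 0.12 and 1.72 ± 0.12.

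Nuclear subunits of the same complexes rose in 26 of 27 cases in WT and 25 of 27 in exa1-1, with medians of 1.95 and 1.61. All 9 shoot markers rose in both genotypes, with a summed level of 11867 to 13524 CPM at 23 °C and 32680 to 37734 at 39 °C in WT, and 11318 to 13812 and 25034 to 27082 in exa1-1. Root markers fell in 10 of 12 cases in each genotype, from 1275 to 1349 CPM down to 367 to 391 in WT and from 1191 to 1363 down to 409 to 440 in exa1-1. Their part in the plastid result was not tested.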

How the data were processed

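For the 24 libraries the authors deposited raw counts and, separately, FPKM for each gene, per the file headers. HISAT2 2.0.4, HTSeq 0.6.1p1 and the TAIR10 build are named in the submitters' processing notes; the strand setting, the handling of overlapping genes and of reads with several places, and the way mRNA was selected are not given in the sources used here. The deposited counts were tested with edgeR 4.0.16 in R 4.3.3 (filterByExpr, TMM, robust quasi-likelihood fit, 12 libraries and 4 groups per set, Benjamini-Hochberg over all genes tested, threshold 0.05). DESeq2 1.42.0 and limma 3.58.1 on log2(FPKM + 1), for genes of at least 1 FPKM in 3 libraries, were alternatives. FPKM were otherwise used only to compare levels between genes. Tables were joined in Python 3.11.15. The 88 genes, their roles and the 5 other gene lists (85 genes, written by hand from general knowledge) were chosen with earlier results of these data known. Named genes were a set of 22 representatives where counted, the 5 highest and 5 lowest called genes per comparison, the 3 with most reads, and up to 4 called genes per other list with the lowest adjusted p; others were added after their values were seen, and low-count genes whose call did not hold without each library are mostly left out. Genes were matched by symbol to the TAIR10.1 plastid annotation, in which 66 had exactly 1 place, and sequences were read from that RefSeq genome; 11 genes without a name in the files are given by identifier. The plastid share was compared by exact two-sided permutation of libraries. The scripts were checked on simulated counts. There, 6.86% of the calls were false for exa1-1 against WT on 1/2 MS and 8.38% at 23 °C. Both exceed the share of 0.05 that the threshold aims at. Replicates of each group differed by more than sampling noise, and libraries sharing a replicate number were not more alike (see the pairing values in the closing section). No library was left out. The values of 1 plastid gene are not reported here by name.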

Additional observations from a re-analysis of the deposited data

Results flagged for a closer look

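The fall of rpoB with salt differed between the genotypes, with an interaction of -0.36 on the log2 scale (adjusted p = 0.0324, edgeR). It was -0.22 in WT and -0.58 in exa1-1, and rpoB was the sole plastid gene of 51 with such a difference. It was not called by DESeq2 or by limma on FPKM, nor in the fit of all 24 libraries. Limma called psbB in its place (-0.28, adjusted p = 0.0434). With 3 libraries per group, no test for outlying libraries was made.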

How the results depend on the processing

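Scaling, filters and tools moved the number of plastid genes called as follows. With all 24 libraries in 1 fit, 13 were called for exa1-1 against WT on 1/2 MS, 11 with NaCl, 5 at 23 °C, 14 for salt in WT, 0 for the salt interaction and 2 for the heat interaction. At 23 °C, 1 was called without a filter on low counts, 5 with only the libraries compared, and 2 each with DESeq2 and with limma on log2(FPKM + 1). At 39 °C, 1 was called with only the libraries compared. For salt in exa1-1, 23 were called with scaling to assigned reads (chosen after seeing the data) and 24 with limma; the salt interaction had 0 with DESeq2. Leaving out 1 library each time gave 0 to 2 genes at 23 °C, 1 to 3 at 39 °C, 1 to 2 for the salt interaction and 0 to 1 for the heat interaction. For the salt interaction the genes called did not always include rpoB. Of the fixed and extreme genes, heat values that changed direction were, with scaling to assigned reads and with limma, rbcL at -0.094 and -0.095 and psbB at -0.47 and -0.44 in WT, and psaA at -0.53 and -0.33, rbcL at -0.48 and -0.43 and psbB at -0.72 and -0.64 in exa1-1. Among all plastid genes called under heat, psaJ in WT (-0.29) and ndhK in exa1-1 (-0.07) also turned per assigned read, as did 9 genes not called in WT and 12 in exa1-1. The limma fit applied no TMM factors. It used the depth scaling within FPKM, so it is not a separate check on scaling to assigned reads. That scaling shifts all genes alike, and the cause of other differences between the tools was not tested. Of 3240 values of named plastid genes under alternatives, 2999 kept direction and side of the threshold, 170 lost and 61 gained the call, and 10 reversed. With the replicate number as a replicate block, 25 genes were called on 1/2 MS, 17 with NaCl, 0 at 23 °C, 4 at 39 °C, 23 and 12 for salt and 28 and 27 for heat in WT and exa1-1. Libraries with the same number correlated at -0.04 to 0.03 in the salt set and -0.07 to 0.14 in the heat set, and 3 and 2 of 12 correlated best with their own number, so the numbers did not pair the libraries. At 3172 to 8030 reads per library over 88 genes, depth limits most of them: 35 could not be tested in either set.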
